A study of Mus musculus with 17 samples.

Results

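Gene expression in the whole blood of 4 mice that received 3.0 Gy of X-rays to the whole body was compared with that of 4 mice that received 0.5 Gy. The mice were chosen by the dose in the labels, which gives 8 of the 17 arrays of the study, and 5 unirradiated controls (0 Gy) serve as a reference. A further 4 mice received 1.0 Gy and enter the fit only through the shared estimate of the spread. All mice were C57BL/6JJcl females aged 8 weeks, an inbred laboratory strain, and blood was taken 24 h after irradiation, with 1 Affymetrix array per mouse; the labels call the mice biological replicates. Each value is a log2 level deposited by the authors after RMA (robust multi-array average, which makes the brightness of all arrays alike in distribution and summarises the short probes that read a transcript, called a probe set). A difference of 1 on this scale is a 2-fold difference. Differences are those between group means, 3.0 Gy minus 0.5 Gy, with limma, a linear model fitted to all genes, and the error printed after a difference is its standard error (SE). An adjusted p (Benjamini-Hochberg over the 12696 genes tested) under 0.05 is a call, and "rose" and "fell" below mean a called difference at 3.0 Gy relative to 0.5 Gy. The error of a group mean is the SD over mice (n = 4 per dose and 5 for controls). Probe sets of different genes are not set against each other in level.

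Ionising radiation breaks DNA, and in a damaged cell the kinases ATM and ATR activate p53, which switches on genes that stop the cell cycle, repair DNA or start cell death. Among blood cells, resting B and T lymphocytes are known to die readily after irradiation, while neutrophils, monocytes, platelets and red cells, which no longer divide, are held to be less sensitive and are lost later, when the bone marrow fails to replace them. Whole blood RNA mixes all of these cells. In such a sample fewer cells of a type and less RNA per cell cannot be told apart.

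Across all probe sets, arrays of the same dose correlated with a median r of 0.987 (12 pairs, from 0.972 to 0.992) and arrays of different doses with 0.961 (16 pairs, from 0.932 to 0.978), as a description of the libraries. The control probe sets for 18S ribosomal RNA differed between the doses: their mean level was 12.69 ± 0.77 at 0.5 Gy (from 11.76 to 13.43) and 10.68 ± 0.14 at 3.0 Gy (from 10.50 to 10.84), against 10.52 ± 0.49 in controls. The difference of -2.01 had an exact two-sided permutation p of 0.0286, the smallest that 4 against 4 arrays allow, and 0.0714 after adjustment over 5 array measures. The 75th percentile of the array was lower by 0.11 at 3.0 Gy (exact permutation p = 0.0286, 0.0714 adjusted), while the array median was higher by 0.04 (p = 0.0571, 0.0952 adjusted). The difference between 3' and 5' probe sets of Actb and Gapdh, a sign of RNA degradation, gave exact permutation p of 0.943 and 0.343. On both, 3.0 Gy replicate 2 was the highest of its dose. It had 0.23 for Actb (others -0.05 to 0.02) and 0.31 for Gapdh (others 0.10 to 0.14), while controls reached 0.22 and 0.32. Among the 8 arrays, 2 stood apart within their doses: 3.0 Gy replicate 2 had a mean B cell level of 6.20 against 4.94 to 5.04 in the others, and 0.5 Gy replicate 2 had a mean neutrophil level of 7.94 against 6.90 to 6.98.

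**Figure D1:**
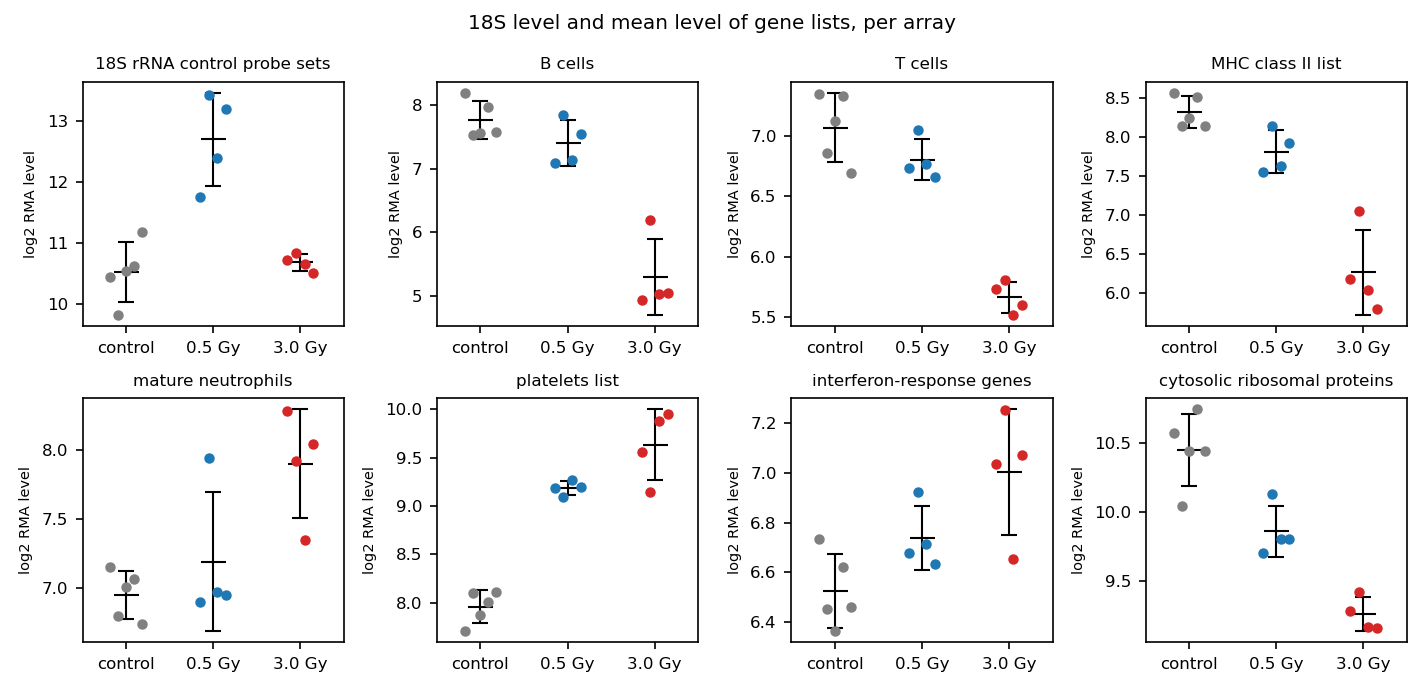
Mean level (log2 RMA) of the 18S control probe sets and of 7 gene lists in each array, with 1 point per mouse and the mean and SD as bars. The 3.0 Gy arrays lay near the controls for 18S (10.50 to 10.84) and below both other groups for B cells, where 1 array at 6.20 stood above the rest (4.94 to 5.04).

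Between 3.0 and 0.5 Gy, 4292 of 12696 genes were called, 33.8%, with 1633 (12.9%) higher and 2659 (20.9%) lower at 3.0 Gy. The shares called in each gene list below are to be read beside these. Large differences ran mostly downward: 916 called genes were at least 2-fold lower and 129 at least 2-fold higher. In 1666 genes (13.1%) all 4 arrays at 3.0 Gy lay above all 4 at 0.5 Gy, and in 2556 (20.1%) they lay below. The median difference over all genes was 0.05. The split between directions depended on the scaling: it was 2857 higher and 2437 lower after a repeated quantile normalization, where the median of all genes was 0.12, and 3233 higher and 2252 lower with arrays centred on their medians, where it was 0.17. Without 0.5 Gy replicate 2 the counts were 1049 higher and 2034 lower.

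The 18S level differed between the doses compared but did not change steadily with dose. Mice that received 1.0 Gy had the highest mean (13.28), above the 0.5 Gy mean (12.69). The mean after 3.0 Gy (10.68) was instead near that of unirradiated mice (10.52). The part of the 18S level in the gene differences was not tested beyond a fit with it as a covariate. In that fit the dose and the 18S level overlap strongly, the median SE of the called genes went from 0.17 to 0.33 and their median absolute difference from 0.69 to 0.60. Of the 4292 calls, 4174 kept their sign and 95 kept their call, 8 higher and 87 lower. Among these 95 were Ifitm1, Wfdc17, Clec4d, Lst1 and Borcs6 on the higher side, and Ighv14-2, Cnn3, Scd1, Fcer2a, Fcmr, Bcl11a, Cd8b1, Ets1, Bcl11b, Cd36, Slc25a37, Isca1, Bpgm, Ube2o, Atp5b, Cd83, Jund, Sfpq, Rps6ka3, Hsph1, Dock10, Tardbp, Prpf4b, Arap2, Lmo2, Trib2 and Trim59 on the lower side. Every other call named below ended in that fit.

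**Figure D2:**
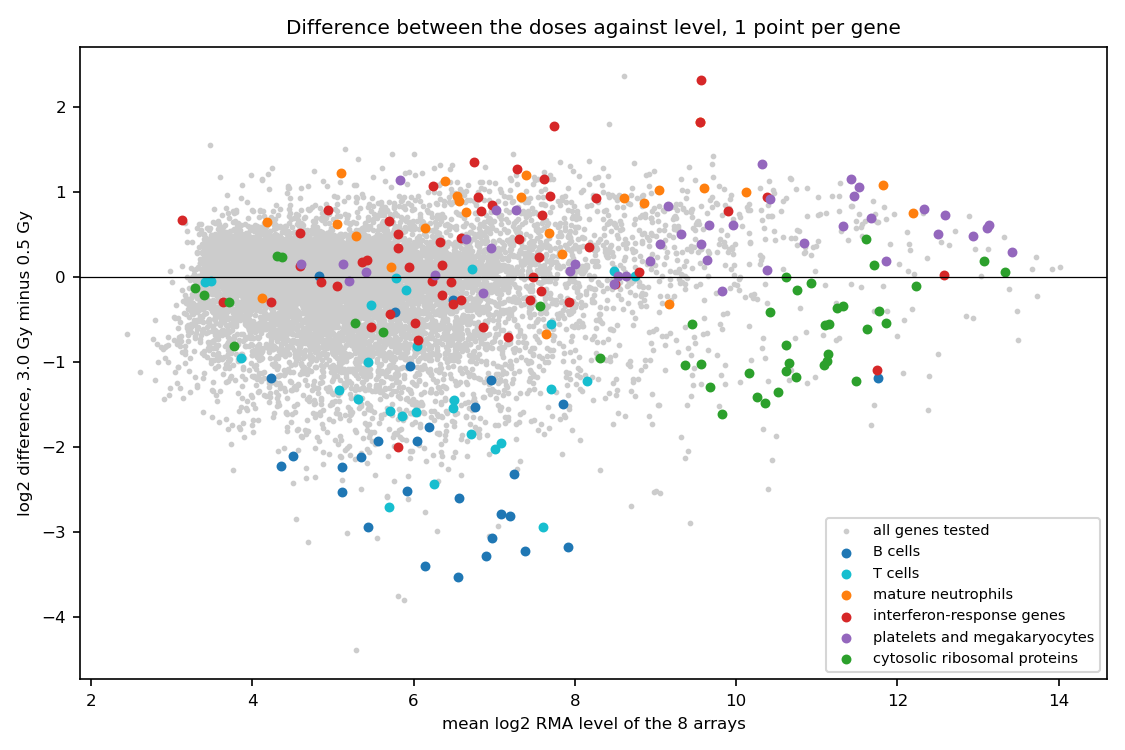
Difference between the doses (log2, 3.0 Gy minus 0.5 Gy) against the mean log2 RMA level of the 8 arrays, 1 point per gene, with 6 gene lists in colour. Most B and T cell genes lie below 0, down to -3.54 for Pou2af1, while called rises reach 2.32 for Ifitm1.

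Of the 12 largest rises with non-overlapping arrays, Ifitm1 came first. Ifitm1, an interferon-induced membrane protein that hinders the entry of viruses, measured 7.87, 9.87, 8.12 and 7.74 at 0.5 Gy and 10.96, 10.93, 9.90 and 11.10 at 3.0 Gy. Every array at 3.0 Gy was above every array at 0.5 Gy, although 0.5 Gy replicate 2 was close to the lowest one, and the controls (mean 9.03 ± 0.21) lay between the group means. Ifitm1 rose by 2.32 ± 0.36 (adjusted p = 9.55e-05), or 5.01-fold. Slfn4, a Schlafen family gene of myeloid cells, rose by 1.83 ± 0.32 (adjusted p = 0.000336). Wfdc17, a small secreted protein with a whey acidic protein domain that is made by myeloid cells, rose by 1.80 ± 0.48 (adjusted p = 0.00767). Ifit3, which belongs to a family of interferon-induced proteins that bind foreign RNA, rose by 1.78 ± 0.23 (adjusted p = 2.37e-05). Ninj1, a membrane protein needed for the rupture of dying cells, rose by 1.42 ± 0.18 (adjusted p = 2.16e-05). Sirt3, a mitochondrial deacetylase, rose by 1.44 ± 0.23 (adjusted p = 0.000121). Mbp, the gene of myelin basic protein, rose by 1.36 ± 0.21 (adjusted p = 0.000101). The other rises among the 12 largest were 1110046J04Rik (1.55 ± 0.31), Ttc16 (1.50 ± 0.19), Fam110b (1.45 ± 0.23), 2310034O05Rik (1.39 ± 0.17) and Tmem140 (1.36 ± 0.26). At 0.5 Gy, 1110046J04Rik lay at 2.48 to 2.84, below the array medians of that dose (3.48 to 3.55). It passed the filter on dim probe sets only through arrays of 3.0 and 1.0 Gy. Saa3, an acute-phase protein, had the largest upward difference of all genes tested, 2.37 ± 1.08, but its arrays overlapped and it was not called (adjusted p = 0.0978).

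Of the 12 largest falls, an immunoglobulin segment came first. The immunoglobulin heavy chain variable segment Ighv14-2 fell by 4.40 ± 0.34 (adjusted p = 3.28e-07), or 21.1-fold, with means of 7.48 ± 0.51 at 0.5 Gy and 3.08 ± 0.78 at 3.0 Gy. Cnn3, an actin-binding calponin, measured 7.33, 8.22, 7.46 and 7.75 at 0.5 Gy and 3.21, 5.43, 3.21 and 3.85 at 3.0 Gy. Its groups did not overlap, but 3.0 Gy replicate 2 was well above the other 3.0 Gy arrays. Scd1, a desaturase that makes monounsaturated fatty acids, fell by 3.05 ± 0.27 (adjusted p = 1.09e-06). P2ry10, a receptor for lysophospholipids on lymphocytes, fell by 3.13 ± 0.36 (adjusted p = 8.13e-06). The kinase gene Sbk1 fell by 3.08 ± 0.38 (adjusted p = 1.64e-05). The other members of the 12, H2-Ob, Pou2af1, Bank1, Spib, Fcmr, Ms4a1 and Btla, belong to B cells or to antigen presentation and are described with those lists.

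Most B cell genes fell. Of the 29 members tested, 27 fell (93.1%) and 0 rose (0 at an unadjusted p under 0.05 in limma's test), and the median log2 difference was -2.23, against 0.05 over all genes, and in 25 of them all 3.0 Gy arrays lay below all 0.5 Gy arrays. Ms4a1, which encodes the B cell surface protein CD20, measured 9.21, 10.06, 9.07 and 9.70 at 0.5 Gy and 5.75, 8.15, 5.86 and 5.55 at 3.0 Gy. No 3.0 Gy array reached the 0.5 Gy range, and 3.0 Gy replicate 2 kept a level more than 2 units above its group. Ms4a1 fell by 3.18 ± 0.41 (adjusted p = 2.02e-05). The controls stood at 9.76 ± 0.39, and the difference between 0.5 Gy and control was -0.25 (adjusted p = 0.783). Fcer2a, the low-affinity IgE receptor CD23 of mature B cells, measured 6.88, 7.65, 6.95 and 7.27 at 0.5 Gy and 4.40, 5.04, 4.54 and 4.68 at 3.0 Gy. The groups of Fcer2a were tight and far apart, and it fell by 2.53 ± 0.22 (adjusted p = 1.06e-06).

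Inhibitory as well as activating receptors of B cells were among the members that fell. Fcmr, a receptor for IgM, fell by 3.23 ± 0.32 (adjusted p = 2.81e-06). Btla, an inhibitory receptor of lymphocytes, fell by 3.08 ± 0.31 (adjusted p = 2.81e-06). Cd22, a lectin that dampens the antigen receptor, fell by 2.80 ± 0.31 (adjusted p = 6.32e-06). Cd72, another inhibitory coreceptor, fell by 2.24 ± 0.24 (adjusted p = 5.06e-06). Cd79b, the signalling chain of the antigen receptor, fell by 2.82 ± 0.41 (adjusted p = 5.7e-05) and its partner Cd79a fell by 1.77 ± 0.25 (adjusted p = 4.04e-05). Bank1, an adaptor downstream of that receptor, fell by 3.41 ± 0.41 (adjusted p = 1.17e-05). Of the transcription factors, Pou2af1, a coactivator of immunoglobulin promoters, fell by 3.54 ± 0.49 (adjusted p = 4.03e-05). Spib, an Ets factor of B cells and plasmacytoid dendritic cells, fell by 3.29 ± 0.43 (adjusted p = 2.56e-05). Bach2, a repressor that holds back plasma cell differentiation, fell by 2.95 ± 0.35 (adjusted p = 9.48e-06). Bcl11a fell by 2.12 ± 0.22 (adjusted p = 3.26e-06). Ebf1, a factor that sets B cell identity, fell by 2.11 ± 0.31 (adjusted p = 6.14e-05). Pax5, another such factor, was not called, at 0.01 ± 0.14 (adjusted p = 0.958). The remaining called members fell by between 0.42 (Cd40, a receptor for T cell help) and 2.61 (Blnk, an adaptor of the antigen receptor). Without 3.0 Gy replicate 2, which kept part of the B cell signal, 27 members fell, and without 0.5 Gy replicate 2 the count was 25.

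Of the 12 immunoglobulin and plasma cell members tested, 4 fell (33.3%) and 0 rose (0 at an unadjusted p under 0.05 in limma's test), and the median log2 difference was -0.15. Ighm, the heavy chain of IgM, fell by 2.69 ± 0.37 (adjusted p = 3.96e-05). Iglv1, a lambda light chain variable segment, fell by 2.21 ± 0.30 (adjusted p = 3.18e-05). Irf4, a factor of activated B cells and plasma cells, fell by 1.29 ± 0.18 (adjusted p = 4.56e-05). Mzb1, an endoplasmic reticulum protein that helps immunoglobulin assembly, fell by 0.98 ± 0.27 (adjusted p = 0.00848). Ighm and Mzb1 were highest in 3.0 Gy replicate 2, at 8.90 and 7.97, where the other 3.0 Gy arrays lay between 6.61 and 6.998 and between 6.45 and 6.63. Probe sets for immunoglobulin segments can bind related segments, and of the other Ighm probe sets some, which were not called, had the opposite sign (0.16 and 0.06).

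Most genes of MHC class II, which presents antigen on B cells, dendritic cells and monocytes, fell as well. Of the 16 members tested, 13 fell (81.2%) and 0 rose (0 at an unadjusted p under 0.05 in limma's test), and the median log2 difference was -1.45, and in 13 members the arrays of the doses did not overlap. H2-Ob, a chain of the H2-O molecule that regulates peptide loading and is made mainly in B cells, measured 7.24, 8.46, 7.46 and 7.97 at 0.5 Gy and 3.74, 5.40, 3.87 and 2.91 at 3.0 Gy. All 3.0 Gy arrays were below all 0.5 Gy arrays, and H2-Ob fell by 3.80 ± 0.38 (adjusted p = 2.81e-06). Of the chains of the classical class II molecules, 3 are named here, with -2.93 ± 0.37 (adjusted p = 1.76e-05) for H2-Ab1, -2.90 ± 0.36 (adjusted p = 1.77e-05) for H2-Aa and -2.55 ± 0.35 (adjusted p = 3.5e-05) for H2-Eb1. Cd74, the invariant chain that escorts them, fell by 2.54 ± 0.30 (adjusted p = 1.05e-05). H2-Oa, the partner of H2-Ob, fell by 1.82 ± 0.24 (adjusted p = 2.9e-05). Ciita, the master coactivator of class II genes, fell by 0.68 ± 0.19 (adjusted p = 0.0104), and Rfx5, a factor that binds their promoters, fell by 0.86 ± 0.17 (adjusted p = 0.000721). Ctss, the protease cathepsin S that trims the invariant chain, fell by 1.04 ± 0.27 (adjusted p = 0.00576).

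Promoters of class II genes carry a set of short elements near the start of the gene, of which the Y box is an inverted CCAAT sequence bound by NF-Y. Windows of 150 bases upstream of the annotated gene start are shown for 4 of the genes that fell, because most members of the list fell, with the letters ATTGG or their complement CCAAT in capitals. The sequences are those of RefSeq on build GRCm38.p6, written 5′ to 3′ on the strand of the gene: H2-Ob lies at chr17:34238755-34238904, + strand, H2-Aa at chr17:34287824-34287973, - strand, H2-Eb1 at chr17:34305717-34305866, + strand and H2-Oa at chr17:34092229-34092378, + strand.
H2-Ob: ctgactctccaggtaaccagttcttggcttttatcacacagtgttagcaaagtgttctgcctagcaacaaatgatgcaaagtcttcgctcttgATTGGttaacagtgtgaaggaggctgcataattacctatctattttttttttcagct
H2-Aa: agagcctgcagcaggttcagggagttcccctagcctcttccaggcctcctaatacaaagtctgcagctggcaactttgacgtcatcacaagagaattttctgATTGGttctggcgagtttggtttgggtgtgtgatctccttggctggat
H2-Eb1: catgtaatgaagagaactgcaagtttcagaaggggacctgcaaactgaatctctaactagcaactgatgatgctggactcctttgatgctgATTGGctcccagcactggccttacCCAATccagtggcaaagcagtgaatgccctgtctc
H2-Oa: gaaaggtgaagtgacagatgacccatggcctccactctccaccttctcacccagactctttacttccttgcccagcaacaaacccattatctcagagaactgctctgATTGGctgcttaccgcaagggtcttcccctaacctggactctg
The letters ATTGG stand on the gene's strand from position -57 in H2-Ob, -48 in H2-Aa, -59 in H2-Eb1 and -43 in H2-Oa, counted back from the gene start, and H2-Eb1 has a second match, on the other strand, at -35. Within 250 bases upstream and on either strand, ATTGG was found in 8 of the 10 promoters of members that fell and had an entry (80%), in 1 of 1 that was not called, and in 11120 of all 32851 promoters of the table (33.8%). A match of these letters is a description of the window.

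**Figure D3:**
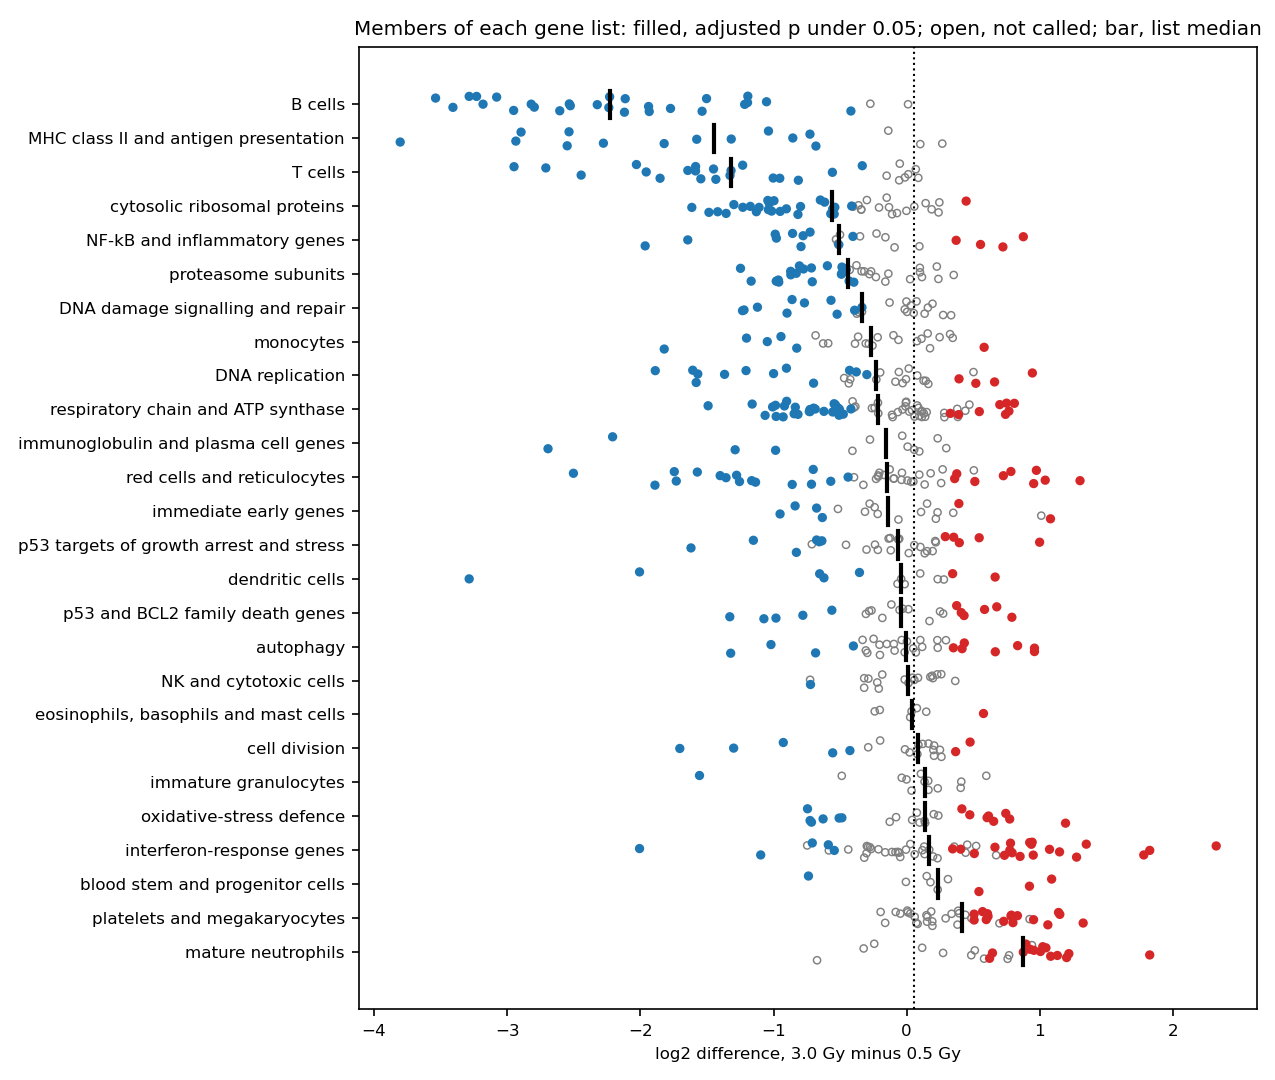
Difference between the doses (log2, 3.0 Gy minus 0.5 Gy) for each tested member of 26 gene lists; filled points were called, open points were not, bars are list medians and the dotted line is the median of all genes (0.05). B cell, MHC class II and T cell members lie lowest, with medians of -2.23, -1.45 and -1.32, and mature neutrophils highest, with 0.88.

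Most T cell genes fell. Of the 27 members tested, 20 fell (74.1%) and 0 rose (0 at an unadjusted p under 0.05 in limma's test), and the median log2 difference was -1.32. In 20 members all 3.0 Gy arrays lay below all 0.5 Gy arrays. Cd8b1, a chain of the CD8 coreceptor of cytotoxic T cells, measured 6.89, 7.44, 7.06 and 6.82 at 0.5 Gy and 4.75, 4.18, 4.03 and 4.42 at 3.0 Gy. All 3.0 Gy arrays, replicate 2 included, were low, and Cd8b1 fell by 2.71 ± 0.27 (adjusted p = 2.81e-06). Ets1, a transcription factor of lymphocytes, measured 8.65, 9.67, 8.90 and 9.08 at 0.5 Gy and 6.14, 6.82, 5.63 and 5.91 at 3.0 Gy, with no overlap, and fell by 2.95 ± 0.29 (adjusted p = 2.81e-06); another probe set of Ets1 gave 0.08 and was not called. Il7r, the receptor for the survival cytokine interleukin 7, fell by 2.03 ± 0.27 (adjusted p = 2.78e-05). Ccr7, which guides naive T cells to lymph nodes, fell by 1.96 ± 0.27 (adjusted p = 3.35e-05). S1pr1, the receptor by which lymphocytes leave lymph nodes, fell by 1.58 ± 0.18 (adjusted p = 9.03e-06). Of the chains of the T cell receptor complex, Cd3g fell by 1.59 ± 0.22 (adjusted p = 3.67e-05). Cd3d fell by 1.32 ± 0.26 (adjusted p = 0.000816). Cd247 fell by 1.43 ± 0.24 (adjusted p = 0.000191) and Cd3e fell by 0.56 ± 0.17 (adjusted p = 0.0158); another probe set of Cd247 gave 0.06 and was not called. Of the nuclear factors, Satb1, a chromatin organiser, fell by 2.44 ± 0.36 (adjusted p = 7.02e-05). Bcl11b, which maintains T cell identity, fell by 1.85 ± 0.26 (adjusted p = 3.7e-05). Lef1 fell by 1.45 ± 0.24 (adjusted p = 0.000197). Cd4 was not called, at -0.15 ± 0.11 (adjusted p = 0.304). The Cd8a probe set used gave 0.09 ± 0.11 (adjusted p = 0.548). Of its other probe sets, 3 gave -2.11, -0.86 and -0.77, and 1 gave 0.09 and was not called. These values were looked up after the results were seen. Cd3e lost its call without 0.5 Gy replicate 2 (adjusted p = 0.0596).

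Markers of natural killer cells showed few calls. Of the 19 members tested, 1 fell (5.26%) and 0 rose (0 at an unadjusted p under 0.05 in limma's test), and the median log2 difference was 0.01. Klra7, a member of the Ly49 family of receptors for MHC class I, fell by 0.73 ± 0.26 (adjusted p = 0.0363), and the closest others were Klrd1, the CD94 chain of NK receptors, with -0.73 ± 0.29 (adjusted p = 0.0616), Klrg1 with -0.32 ± 0.14 (adjusted p = 0.0874) and the chemokine Xcl1 with 0.26 ± 0.13 (adjusted p = 0.142). Probe sets for the Ly49 family can bind several of its members. NK genes that fell numbered 0 without any 1 array except 3.0 Gy replicate 3 or 0.5 Gy replicates 1 or 3 and 2 without 0.5 Gy replicate 1.

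Of the 25 neutrophil members tested, 14 rose (56%) and 0 fell (0 at an unadjusted p under 0.05 in limma's test), and the median log2 difference was 0.88, and in 6 of them the arrays of the doses did not overlap. Clec4d, a C-type lectin receptor of myeloid cells, measured 8.80, 9.60, 8.95 and 8.98 at 0.5 Gy and 10.31, 9.80, 10.12 and 10.29 at 3.0 Gy. The groups did not overlap, with 0.5 Gy replicate 2, at 9.60, above the others of its dose, and Clec4d rose by 1.05 ± 0.18 (adjusted p = 0.000249). The decoy receptor for interleukin 1, Il1r2, rose by 1.22 ± 0.24 (adjusted p = 0.000869). Trem1, a receptor that amplifies inflammation, rose by 1.13 ± 0.23 (adjusted p = 0.000896). G0s2, an inhibitor of lipid breakdown, rose by 0.64 ± 0.12 (adjusted p = 0.000433). Hdc, which makes histamine, rose by 0.96 ± 0.19 (adjusted p = 0.000982). Csf3r, the receptor for the granulocyte growth factor G-CSF, rose by 1.02 ± 0.33 (adjusted p = 0.0217). S100a9, an abundant calcium-binding protein of the granulocyte cytosol, rose by 1.08 ± 0.33 (adjusted p = 0.0164). Its partner S100a8 was not called, at 0.76 ± 0.29 (adjusted p = 0.0512). The neutrophil list mean was 7.35 to 8.28 at 3.0 Gy and 6.90 to 7.94 at 0.5 Gy, so the groups overlapped, and without 0.5 Gy replicate 2 there were 19 members that rose. Neutrophil members that rose numbered 8 without 3.0 Gy replicates 1 or 4 or 0.5 Gy replicate 1 and 9 without 0.5 Gy replicate 3. Csf3r lost its call without any 1 array except 3.0 Gy replicates 2 or 3 or 0.5 Gy replicate 2, and S100a9 without 3.0 Gy replicates 1 or 4 or 0.5 Gy replicates 1 or 4 (adjusted p from 0.0509 to 0.0646).

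Genes of granule proteins that are transcribed in immature granulocytes of the marrow showed few calls. Of the 13 members tested, 1 fell (7.69%) and 0 rose (1 at an unadjusted p under 0.05 in limma's test), and the median log2 difference was 0.13. Serpinb1a, an inhibitor of neutrophil proteases, fell by 1.56 ± 0.27 (adjusted p = 0.000248). Prtn3 (proteinase 3) was at 0.60 ± 0.23 (adjusted p = 0.056), Lyz2 (lysozyme) at 0.41 ± 0.21 (adjusted p = 0.137) and Camp (cathelicidin) at 0.23 ± 0.13 (adjusted p = 0.179). Immature granulocyte genes that rose numbered 1 without 3.0 Gy replicate 4 or 0.5 Gy replicates 2 or 4.

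Of the 24 monocyte members tested, 5 fell (20.8%) and 1 rose (4.17%), and the median log2 difference was -0.27; over all genes 20.9% fell and 12.9% rose, so the share of falls is near that background and the share of rises below it. Cd36, a scavenger receptor of monocytes that platelets and red cell precursors also carry, fell by 1.82 ± 0.20 (adjusted p = 5.95e-06). Ccr2, the chemokine receptor of inflammatory monocytes, fell by 1.05 ± 0.20 (adjusted p = 0.000631). Ms4a4c fell by 0.94 ± 0.17 (adjusted p = 0.000362). Spn (CD43) fell by 0.83 ± 0.24 (adjusted p = 0.0122). Cybb, the catalytic subunit of the phagocyte oxidase, fell by 1.20 ± 0.40 (adjusted p = 0.0264). Treml4, a receptor of non-classical monocytes, rose by 0.58 ± 0.22 (adjusted p = 0.0461). Monocyte members that rose numbered 0 without any 1 array except 0.5 Gy replicate 2, and those that fell numbered 3 without 3.0 Gy replicate 3. Of the 13 dendritic cell members tested, 5 fell (38.5%) and 2 rose (15.4%), and the median log2 difference was -0.04, with a sign that turns under other scalings. Irf8, which directs the development of dendritic cells and is also made in B cells, fell by 2.01 ± 0.28 (adjusted p = 4.5e-05). Ccr9 fell by 0.62 ± 0.17 (adjusted p = 0.00825). Tcf4, the factor of plasmacytoid dendritic cells, fell by 0.65 ± 0.19 (adjusted p = 0.011). Cd209a fell by 0.35 ± 0.13 (adjusted p = 0.0426); Spib is the remaining one. Cd7 rose by 0.66 ± 0.16 (adjusted p = 0.00356) and Bst2, an antiviral tether also listed among interferon genes, rose by 0.35 ± 0.12 (adjusted p = 0.0386). Probe sets of Ccr9 disagreed: others gave -1.14, -0.53 and 0.40, all called, and 0.25, not called. Dendritic cell members that rose numbered 1 without 3.0 Gy replicate 3 or 0.5 Gy replicates 2, 3 or 4. Spn lost its call without 3.0 Gy replicate 3, Cybb without 3.0 Gy replicates 3 or 4 or 0.5 Gy replicates 2 or 4, Treml4 without any 1 array except 0.5 Gy replicate 2 and under another filter, Cd209a without any 1 array except 3.0 Gy replicate 2 or 0.5 Gy replicate 1 and under another scaling and another fit, and Bst2 without any 1 array except 3.0 Gy replicates 1 or 4 and under another fit (adjusted p from 0.05034 to 0.144).

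Of the 55 interferon-response members tested, 20 rose (36.4%) and 5 fell (9.09%), and the median log2 difference was 0.17; over all genes 20.9% fell and 12.9% rose. The list means overlapped, from 6.64 to 6.92 at 0.5 Gy and from 6.65 to 7.26 at 3.0 Gy. Ifit3 measured 6.97, 6.85, 6.96 and 6.65 at 0.5 Gy and 8.77, 8.81, 8.06 and 8.90 at 3.0 Gy. Its groups were far apart, and 3.0 Gy replicate 3, at 8.06, was the lowest of its group. The controls stood at 5.46 ± 0.09, and Ifit3 was already above them at 0.5 Gy by 1.39 (adjusted p = 0.0003). Ifit1 rose by 1.28 ± 0.24 (adjusted p = 0.000607). Oasl1, a member of the 2'-5'-oligoadenylate synthetase family, rose by 1.35 ± 0.23 (adjusted p = 0.000253). Oas1a rose by 0.85 ± 0.23 (adjusted p = 0.00792). Usp18, which removes ISG15 and restrains the interferon receptor, rose by 1.07 ± 0.24 (adjusted p = 0.00204). Rtp4, a receptor transporter, rose by 1.15 ± 0.20 (adjusted p = 0.00026). Among the relatives of Ifitm1 Ifitm3 rose by 0.94 ± 0.16 (adjusted p = 0.000182) and Ifitm2 rose by 0.92 ± 0.21 (adjusted p = 0.00258).

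Slfn4 measured 8.26, 9.28, 8.55 and 8.46 at 0.5 Gy and 11.06, 9.63, 10.15 and 11.02 at 3.0 Gy, with no overlap, and the controls were lower than both doses at 6.89 ± 0.54. Of the members that fell, Irf8 is shared with the dendritic cell list. Rsad2, the antiviral enzyme viperin, measured 12.51, 12.08, 12.46 and 12.14 at 0.5 Gy and 10.93, 11.64, 10.69 and 11.55 at 3.0 Gy, all 3.0 Gy arrays lying below the 0.5 Gy ones, and fell by 1.10 ± 0.23 (adjusted p = 0.00129). Psmb8, a subunit of the immunoproteasome, fell by 0.71 ± 0.20 (adjusted p = 0.0118). Samd9l fell by 0.59 ± 0.22 (adjusted p = 0.0474) and Parp9 fell by 0.54 ± 0.21 (adjusted p = 0.0494). Interferon genes that fell numbered 2 without 0.5 Gy replicate 2 and 3 without 3.0 Gy replicates 3 or 4 or 0.5 Gy replicates 3 or 4. Psmb8 lost its call without 0.5 Gy replicate 2 and under another choice of probe set, Samd9l without any 1 array except 3.0 Gy replicate 1 or 0.5 Gy replicate 1 and under another filter, another scaling and another fit, and Parp9 without any 1 array except 3.0 Gy replicate 2 and under another filter, another scaling and another fit (adjusted p from 0.05019 to 0.176).

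The interferon-stimulated response element, which the factor complex ISGF3 binds, holds repeats of GAAA. Windows of 150 bases upstream of the gene start are shown for 4 interferon genes that rose, with GAAANNGAAA (N, any base) or its complement on the other strand in capitals. The sequences come from RefSeq on build GRCm38.p6, 5′ to 3′ on the strand of the gene: Ifit3 at chr19:34583379-34583528, + strand, Ifit1 at chr19:34640739-34640888, + strand, Ifitm2 at chr7:140955962-140956111, - strand and Oas1a at chr5:120907526-120907675, - strand.
Ifit3: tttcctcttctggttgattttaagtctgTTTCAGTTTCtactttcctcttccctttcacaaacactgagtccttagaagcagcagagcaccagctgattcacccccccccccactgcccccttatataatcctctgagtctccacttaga
Ifit1: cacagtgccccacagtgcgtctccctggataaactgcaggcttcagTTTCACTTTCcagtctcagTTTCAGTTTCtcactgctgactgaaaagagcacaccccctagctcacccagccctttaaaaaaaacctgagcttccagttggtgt
Ifitm2: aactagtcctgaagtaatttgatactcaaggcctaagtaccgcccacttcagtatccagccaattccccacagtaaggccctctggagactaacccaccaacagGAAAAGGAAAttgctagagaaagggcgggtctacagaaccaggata
Oas1a: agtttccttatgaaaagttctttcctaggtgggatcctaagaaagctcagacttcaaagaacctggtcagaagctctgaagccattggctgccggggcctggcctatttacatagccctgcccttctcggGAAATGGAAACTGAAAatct
The match begins at -122 in Ifit3, at -104 and -85 in Ifit1, at -46 in Ifitm2 and, as overlapping matches, at -20 and -14 in Oas1a. Within 250 bases upstream, on either strand, GAAANNGAAA was found in 7 of 15 promoters of members that rose (46.7%), in 1 of 4 of those that fell (25%), in 10 of 25 of those not called (40%) and in 978 of 32851 promoters of the table (2.98%). Ifitm1, Slfn4 and Oasl1, which rose, did not hold these letters in the window.

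**Figure D4:**
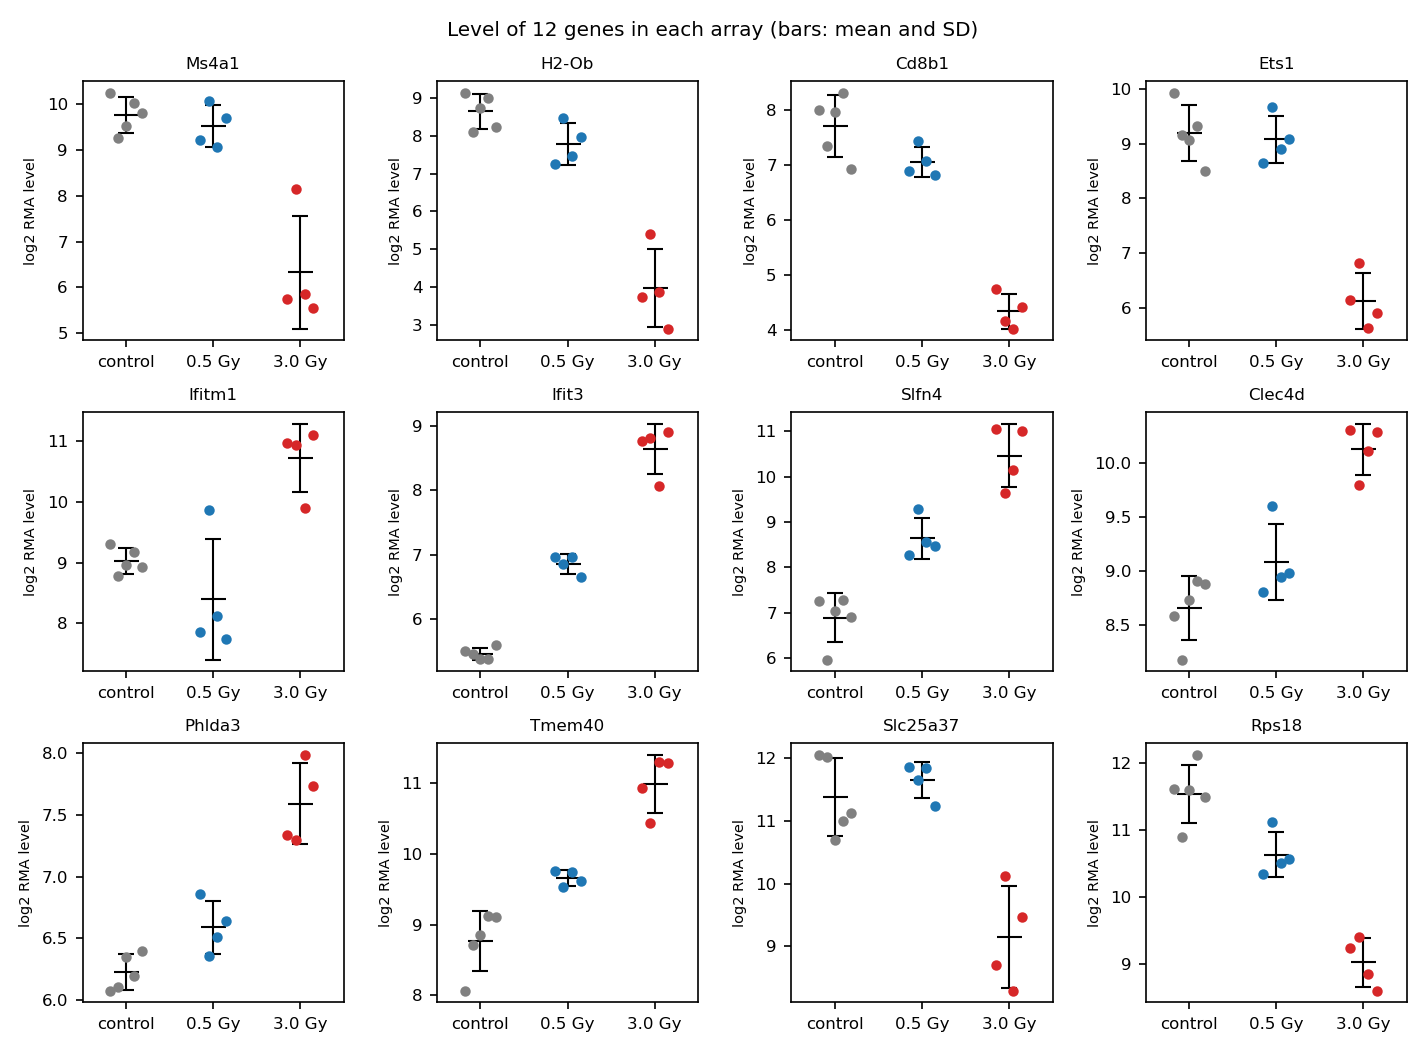
Level (log2 RMA) of 12 genes in each control, 0.5 Gy and 3.0 Gy array, with 1 point per mouse and the mean and SD as bars. Ms4a1 shows 1 array at 3.0 Gy (8.15) above the other 3.0 Gy arrays (5.55 to 5.86), while all 4 were low for Cd8b1, from 4.03 to 4.75.

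Of the 29 p53 target members tested, 6 fell (20.7%) and 5 rose (17.2%), and the median log2 difference was -0.06, with a sign that turns under other scalings. Both shares are near those of all genes, of which 20.9% fell and 12.9% rose. Cdkn1a, which encodes the cell cycle inhibitor p21, measured 5.60, 5.33, 5.53 and 5.49 at 0.5 Gy and 5.97, 6.55, 5.86 and 5.75 at 3.0 Gy. Its groups did not overlap, with 3.0 Gy replicate 2 the highest, and Cdkn1a rose by 0.54 ± 0.16 (adjusted p = 0.0161), and its difference from control was 1.03 (adjusted p = 2.26e-05) at 3.0 Gy. Phlda3, an inhibitor of AKT signalling, rose by 1.00 ± 0.15 (adjusted p = 6.65e-05), and 3 further targets rose: Plk2, a polo-like kinase, rose by 0.35 ± 0.12 (adjusted p = 0.0296). Cd80, a costimulatory ligand, rose by 0.29 ± 0.10 (adjusted p = 0.0299). Psrc1, a spindle protein, rose by 0.40 ± 0.14 (adjusted p = 0.04). Of the targets that fell, Sesn1, a stress-induced inhibitor of mTORC1, measured 6.95, 7.37, 6.93 and 7.16 at 0.5 Gy and 5.52, 5.65, 5.41 and 5.35 at 3.0 Gy, the groups lying far apart, and fell by 1.62 ± 0.17 (adjusted p = 3.69e-06). Ptp4a3, a phosphatase, fell by 1.15 ± 0.15 (adjusted p = 2.33e-05). Ddb2, which recognises ultraviolet damage in DNA, fell by 0.83 ± 0.19 (adjusted p = 0.00313). Btg2, an antiproliferative gene, fell by 0.68 ± 0.18 (adjusted p = 0.00832). Ppm1d, the phosphatase WIP1 that switches the damage response off, fell by 0.66 ± 0.12 (adjusted p = 0.000584). Rrm2b, a subunit of ribonucleotide reductase, fell by 0.64 ± 0.19 (adjusted p = 0.0137). The p53 targets that rose numbered 1 without 0.5 Gy replicate 2, 2 without 3.0 Gy replicates 1 or 2 and 3 without 3.0 Gy replicate 4 or 0.5 Gy replicate 3. Cdkn1a lost its call without 3.0 Gy replicate 2 or 0.5 Gy replicate 2, Plk2 without any 1 array except 3.0 Gy replicates 3 or 4 or 0.5 Gy replicate 3 and under another choice of probe set, Cd80 without 3.0 Gy replicates 1 or 4 or 0.5 Gy replicates 2 or 3, Psrc1 without any 1 array except 0.5 Gy replicates 1 or 4, Btg2 under another choice of probe set, and Rrm2b without 3.0 Gy replicate 4 or 0.5 Gy replicate 2 (adjusted p from 0.05042 to 0.876).

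Some well-known p53 targets were not called between the doses, and these were chosen after their values were seen. Ccng1, the gene of cyclin G1, measured 6.60, 6.88, 6.84 and 6.76 at 0.5 Gy and 6.71, 6.82, 6.38 and 6.67 at 3.0 Gy, with overlapping groups and a difference of -0.12 ± 0.15 (adjusted p = 0.54), while both doses lay above the controls, by 0.88 (adjusted p = 0.00042) at 0.5 Gy and 0.76 (adjusted p = 0.000229) at 3.0 Gy. Mdm2, the ubiquitin ligase that removes p53, was at 0.02 ± 0.14 (adjusted p = 0.938) between the doses, and Aen, a nuclease of apoptosis, at -0.12 ± 0.15 (adjusted p = 0.557). The comparisons with control share arrays with the comparison between the doses.

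Of the 22 cell death members tested, 6 rose (27.3%) and 5 fell (22.7%). Over all genes 12.9% rose and 20.9% fell, so the share of falls is near that background. The median log2 difference was -0.04, with a sign that turns under other scalings. Of the death-promoting genes, Bid, a BCL2 family member activated by caspase 8, rose by 0.58 ± 0.19 (adjusted p = 0.0265). Bik rose by 0.43 ± 0.12 (adjusted p = 0.0118). Bad rose by 0.41 ± 0.12 (adjusted p = 0.0131) and Hrk rose by 0.38 ± 0.14 (adjusted p = 0.0428). Bcl2l11, the gene of BIM, fell by 0.56 ± 0.21 (adjusted p = 0.0434). Casp6, an executioner caspase, rose by 0.68 ± 0.20 (adjusted p = 0.0132). Casp8, the initiator caspase of death receptors, fell by 1.07 ± 0.20 (adjusted p = 0.000468) and Apaf1, the scaffold of the apoptosome, fell by 0.98 ± 0.28 (adjusted p = 0.012). Among genes that protect cells, Mcl1 fell by 0.78 ± 0.28 (adjusted p = 0.0415). Of the inhibitors of apoptosis Birc3 fell by 1.33 ± 0.20 (adjusted p = 6.53e-05) and Birc2 rose by 0.79 ± 0.22 (adjusted p = 0.0105). Death genes that fell numbered 2 without 3.0 Gy replicate 3 or 0.5 Gy replicate 2 and 3 without 3.0 Gy replicates 1 or 4. Bid lost its call without any 1 array except 3.0 Gy replicate 2 or 0.5 Gy replicate 3 and under another choice of probe set and another fit, Hrk without any 1 array except 3.0 Gy replicate 3 or 0.5 Gy replicate 1 and under another fit, Bcl2l11 without any 1 array except 3.0 Gy replicate 2 or 0.5 Gy replicate 4 and under another scaling, Casp6 without 3.0 Gy replicate 3, Apaf1 without 3.0 Gy replicate 3 or 0.5 Gy replicate 2, and Mcl1 without any 1 array except 3.0 Gy replicate 2 or 0.5 Gy replicates 1 or 3 and under another choice of probe set and another fit (adjusted p from 0.05037 to 0.162).

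Of the 42 platelet members tested, 16 rose (38.1%) and 0 fell (0 at an unadjusted p under 0.05 in limma's test), and the median log2 difference was 0.42, and 26 were not called. Tmem40, a membrane protein of platelets, measured 9.76, 9.52, 9.75 and 9.61 at 0.5 Gy and 10.93, 10.44, 11.30 and 11.28 at 3.0 Gy, with no overlap. Between the doses Tmem40 rose by 1.33 ± 0.22 (adjusted p = 0.000194). Its controls were lower than both doses, at 8.77 ± 0.43. Of the subunits of the receptor for von Willebrand factor, 3 rose, with 1.15 ± 0.20 (adjusted p = 0.000299) for Gp1bb, 1.06 ± 0.23 (adjusted p = 0.00171) for Gp9 and 0.51 ± 0.19 (adjusted p = 0.0463) for Gp5. Pf4, the chemokine platelet factor 4, measured 12.79, 12.79, 12.86 and 12.88 at 0.5 Gy and 13.44, 12.95, 13.72 and 13.65 at 3.0 Gy, the lowest 3.0 Gy array being replicate 2, and rose by 0.61 ± 0.16 (adjusted p = 0.00729). P2ry1, a receptor for ADP, rose by 1.14 ± 0.27 (adjusted p = 0.0037). Clec1b, the podoplanin receptor CLEC-2, rose by 0.73 ± 0.18 (adjusted p = 0.00444). Tbxas1, which makes thromboxane, rose by 0.78 ± 0.18 (adjusted p = 0.00305). Myl9, a myosin light chain, rose by 0.95 ± 0.22 (adjusted p = 0.00277). Nrgn, neurogranin, rose by 0.80 ± 0.14 (adjusted p = 0.000313). The list mean was 9.14 to 9.95 at 3.0 Gy, 9.09 to 9.27 at 0.5 Gy and 7.70 to 8.11 in controls. The count was 24 without 3.0 Gy replicate 2 and 12 without 0.5 Gy replicate 2. Gp5 lost its call without any 1 array except 3.0 Gy replicates 1 or 2 or 0.5 Gy replicate 3 and under another filter, another scaling and another fit (adjusted p from 0.0524 to 0.159).

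Of the 46 red cell members tested, 16 fell (34.8%), 9 rose (19.6%) and 21 were not called. The median log2 difference was -0.15. Over all genes 20.9% fell and 12.9% rose. Slc25a37, mitoferrin 1, which carries iron into the mitochondria of red cell precursors for heme synthesis, measured 11.86, 11.66, 11.85 and 11.24 at 0.5 Gy and 8.71, 10.13, 8.30 and 9.47 at 3.0 Gy. All 3.0 Gy arrays were below all others, and Slc25a37 fell by 2.50 ± 0.34 (adjusted p = 3.17e-05). Fech, the last enzyme of heme synthesis, fell by 1.16 ± 0.22 (adjusted p = 0.000472) by its main probe set. Other probe sets of Fech, at -1.72 and -2.26, were called lower too. A further probe set of Fech was called in the opposite direction, at 0.29 (adjusted p = 0.0443 over the probe sets that passed the filter). Isca1, which assembles iron-sulfur clusters, fell by 1.13 ± 0.14 (adjusted p = 1.84e-05). Slc4a1, the anion exchanger band 3, fell by 1.89 ± 0.24 (adjusted p = 1.79e-05). Bpgm, which makes 2,3-bisphosphoglycerate, fell by 1.57 ± 0.19 (adjusted p = 1.43e-05). Car2, carbonic anhydrase 2, fell by 1.40 ± 0.21 (adjusted p = 7.07e-05). Tent5c, a poly(A) polymerase, fell by 1.75 ± 0.27 (adjusted p = 9.18e-05). Ube2o, a ubiquitin enzyme that clears proteins from maturing red cells, fell by 1.73 ± 0.30 (adjusted p = 0.000236).

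Of the red cell members that rose, Gata1, the master factor of red cells and megakaryocytes, measured 7.37, 7.14, 7.31 and 7.36 at 0.5 Gy and 8.61, 8.05, 8.98 and 8.75 at 3.0 Gy, with no overlap, and rose by 1.30 ± 0.18 (adjusted p = 3.48e-05). Tal1 rose by 0.95 ± 0.15 (adjusted p = 0.000155). Nfe2, needed for the formation of platelets, rose by 1.04 ± 0.17 (adjusted p = 0.000182). Klf1, a factor of the red cell lineage, rose by 0.38 ± 0.12 (adjusted p = 0.0243). Aqp1, a water channel of red cells, rose by 0.97 ± 0.20 (adjusted p = 0.00128). The anion exchanger has another probe set, not called, with the opposite sign (0.23), and Isca1 likewise (0.04). Of the 9 stem and progenitor members tested, 3 rose (33.3%) and 1 fell (11.1%), and the median log2 difference was 0.23. Over all genes 12.9% rose and 20.9% fell. Slamf1, a receptor of blood stem cells and lymphocytes, rose by 0.92 ± 0.20 (adjusted p = 0.00199). Myct1 rose by 1.09 ± 0.28 (adjusted p = 0.00563). Angpt1 rose by 0.54 ± 0.20 (adjusted p = 0.0454) and Myb fell by 0.74 ± 0.23 (adjusted p = 0.0177). Of the 7 eosinophil, basophil and mast cell members tested, 1 rose (14.3%) and 0 fell (0 at an unadjusted p under 0.05 in limma's test), and the median log2 difference was 0.04. The one called was Gata2, a factor of progenitors, basophils and mast cells, which rose by 0.57 ± 0.18 (adjusted p = 0.0175). Members of this list that rose numbered 0 without 3.0 Gy replicate 4 or 0.5 Gy replicate 2. Klf1 lost its call without 3.0 Gy replicate 3 or 0.5 Gy replicates 2 or 3, Angpt1 without any 1 array except 3.0 Gy replicate 2 and under another filter, another choice of probe set and another fit, and Gata2 without 3.0 Gy replicate 4 or 0.5 Gy replicate 2 (adjusted p from 0.0517 to 0.145).

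Of the 31 replication members tested, 12 fell (38.7%) and 4 rose (12.9%), and the median log2 difference was -0.23. Over all genes 20.9% fell and 12.9% rose, so the share of rises is at that background. Cdt1, which licenses replication origins, fell by 1.89 ± 0.22 (adjusted p = 8.99e-06), and of the subunits of the MCM helicase 3 fell, with -1.58 ± 0.23 (adjusted p = 6.17e-05) for Mcm5, -1.61 ± 0.27 (adjusted p = 0.000224) for Mcm6 and -1.37 ± 0.21 (adjusted p = 0.000111) for Mcm4. Pcna, the sliding clamp, fell by 1.21 ± 0.18 (adjusted p = 7.05e-05) and Rpa1, which coats single-stranded DNA, fell by 1.57 ± 0.21 (adjusted p = 3.15e-05). The 4 that rose were Orc1 with 0.66 ± 0.19 (adjusted p = 0.0107), Cdc45 with 0.52 ± 0.13 (adjusted p = 0.00498), Mcm10 with 0.39 ± 0.14 (adjusted p = 0.0334) and Dut, which removes dUTP, with 0.94 ± 0.28 (adjusted p = 0.0129). Replication genes that rose numbered 2 without 3.0 Gy replicate 3. Of the 20 cell division members tested, 5 fell (25%) and 2 rose (10%), and the median log2 difference was 0.08. Both shares are near those of all genes, 20.9% and 12.9%. Ube2c, a ubiquitin enzyme of mitotic exit, fell by 1.30 ± 0.17 (adjusted p = 2.66e-05). Nusap1, a spindle protein, fell by 1.70 ± 0.24 (adjusted p = 4.04e-05). Ccna2 (cyclin A2) fell by 0.93 ± 0.18 (adjusted p = 0.000616). Ccnb2 (cyclin B2) fell by 0.56 ± 0.19 (adjusted p = 0.0312) and Cenpa, the centromeric histone, fell by 0.43 ± 0.16 (adjusted p = 0.0417). Aurka, a mitotic kinase, rose by 0.37 ± 0.12 (adjusted p = 0.022) and Cdca8 rose by 0.48 ± 0.16 (adjusted p = 0.0284). Division genes that rose numbered 1 without any 1 array except 3.0 Gy replicates 1 or 2, and those that fell numbered 3 without 3.0 Gy replicates 3 or 4. Mcm10 lost its call without any 1 array except 3.0 Gy replicates 1 or 2 or 0.5 Gy replicate 1 and under another choice of probe set, Dut without 3.0 Gy replicate 3, Ccnb2 without any 1 array except 3.0 Gy replicate 2 or 0.5 Gy replicates 2 or 4 and under another scaling, Cenpa without any 1 array except 3.0 Gy replicate 1 or 0.5 Gy replicates 1 or 3 and under another choice of probe set, another scaling and another fit, Aurka without 3.0 Gy replicate 1 or 0.5 Gy replicate 3, and Cdca8 without any 1 array except 3.0 Gy replicates 1 or 2 or 0.5 Gy replicate 3 and under another fit (adjusted p from 0.05005 to 0.331).

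Of the 25 DNA damage signalling and repair members tested, 10 fell (40%) and 0 rose (0 at an unadjusted p under 0.05 in limma's test), and the median log2 difference was -0.34. Both kinases at the head of the damage response fell: Atr fell by 1.23 ± 0.26 (adjusted p = 0.00121) and Atm fell by 0.52 ± 0.18 (adjusted p = 0.0334). Rad23b, which takes part in nucleotide excision repair, fell by 1.22 ± 0.17 (adjusted p = 4.24e-05). Apex1, the endonuclease of base excision repair, fell by 0.90 ± 0.13 (adjusted p = 5.18e-05). Trp53bp1, which marks double-strand breaks, fell by 0.57 ± 0.13 (adjusted p = 0.00286). Prkdc, the catalytic subunit of DNA-dependent kinase, fell by 0.77 ± 0.20 (adjusted p = 0.00642). Repair genes that rose numbered 1 without 0.5 Gy replicate 4. Atm lost its call without 3.0 Gy replicates 1 or 4 or 0.5 Gy replicates 2 or 3 and under another scaling and another fit (adjusted p from 0.0627 to 0.138).

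Most ribosomal protein genes tested fell. Of the 43 ribosomal members tested, 26 fell (60.5%) and 1 rose (2.33%), and the median log2 difference was -0.56. With the 18S level in the fit that median was -0.13. Rps18 measured 10.34, 11.12, 10.50 and 10.57 at 0.5 Gy and 9.23, 9.40, 8.85 and 8.60 at 3.0 Gy, with no overlap and with the controls higher still at 11.55 ± 0.43, and fell by 1.61 ± 0.23 (adjusted p = 4.28e-05); another, uncalled probe set of Rps18 gave 0.06. Rpl4 fell by 1.42 ± 0.19 (adjusted p = 2.59e-05). Rpl13a fell by 1.23 ± 0.16 (adjusted p = 2.78e-05) and Rpl22 fell by 1.49 ± 0.21 (adjusted p = 4.24e-05). The single riser, Rpl41, rose by 0.45 ± 0.15 (adjusted p = 0.0309), and its other probe sets gave -0.08, -0.08 and 0.28, none of them called, so its direction is not settled. Ribosomal genes that rose numbered 0 without 3.0 Gy replicates 3 or 4 or 0.5 Gy replicates 2 or 4. Of the 36 proteasome members tested, 20 fell (55.6%) and 0 rose (0 at an unadjusted p under 0.05 in limma's test), and the median log2 difference was -0.44. With the 18S level in the fit the proteasome median was -0.19. Psma1 fell by 1.17 ± 0.18 (adjusted p = 9.38e-05). Psma4 fell by 0.96 ± 0.18 (adjusted p = 0.000552). Of the regulatory particle, Psmd6 fell by 1.25 ± 0.23 (adjusted p = 0.000473) and Psmc5 fell by 0.83 ± 0.15 (adjusted p = 0.000492). Proteasome subunits that fell numbered 12 without 3.0 Gy replicate 4 or 0.5 Gy replicate 2. Rpl41 lost its call without any 1 array except 3.0 Gy replicates 1 or 2 or 0.5 Gy replicate 3 and under another choice of probe set (adjusted p from 0.0589 to 0.784).

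Of the 68 respiratory chain and ATP synthase members tested, 28 fell (41.2%) and 8 rose (11.8%), and the median log2 difference was -0.21. With the 18S level in the fit that median was 0.19. Over all genes 20.9% fell and 12.9% rose, so the share of members that rose is near that background. Of the core of ATP synthase, values were -0.92 ± 0.12 (adjusted p = 2.45e-05) for Atp5b and -0.98 ± 0.15 (adjusted p = 8.19e-05) for Atp5a1, and of complex III -1.01 ± 0.15 (adjusted p = 5.76e-05) for Uqcrc2 and -1.16 ± 0.20 (adjusted p = 0.000224) for Uqcrb. Among the 8 that rose were Cox6b1 (0.81 ± 0.18, adjusted p = 0.00193) and Ndufs4 (0.77 ± 0.20, adjusted p = 0.00569). Respiratory genes that rose numbered 2 without 3.0 Gy replicate 3 and 3 without 3.0 Gy replicate 4.

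Of the 22 inflammatory members tested, 10 fell (45.5%) and 4 rose (18.2%), and the median log2 difference was -0.50. Cd83, a surface protein of activated B cells and dendritic cells, fell by 1.96 ± 0.18 (adjusted p = 1.22e-06). Of the feedback inhibitors of NF-kB, 3 fell, with -0.98 ± 0.15 (adjusted p = 9.76e-05) for Nfkbie, -0.99 ± 0.20 (adjusted p = 0.00115) for Nfkbia and -0.86 ± 0.13 (adjusted p = 0.000109) for Tnfaip3. Ikbkb, the kinase that frees NF-kB, fell by 1.64 ± 0.24 (adjusted p = 5.51e-05). Sod2, the mitochondrial superoxide dismutase, fell by 0.73 ± 0.13 (adjusted p = 0.000305); other probe sets of both, not called, had the opposite sign (0.12 and 0.34). The 4 that rose were the cytokines Il1b (0.88 ± 0.30, adjusted p = 0.0297) and Tnf (0.37 ± 0.13, adjusted p = 0.0401), the interleukin 1 antagonist Il1rn (0.55 ± 0.16, adjusted p = 0.014) and Ier3 (0.72 ± 0.21, adjusted p = 0.0127). Inflammatory genes that rose numbered 1 without 3.0 Gy replicate 1 and 2 without 3.0 Gy replicate 4 or 0.5 Gy replicates 1, 3 or 4, and those that fell numbered 6 without 0.5 Gy replicate 2. Of the 18 immediate early members tested, 4 fell (22.2%) and 2 rose (11.1%), and the median log2 difference was -0.14, with a sign that turned under repeated quantile normalization (0.05); both shares are near those of all genes, 20.9% and 12.9%. Jund fell by 0.95 ± 0.19 (adjusted p = 0.000841). Myc fell by 0.84 ± 0.22 (adjusted p = 0.00586) and Ier5 fell by 0.63 ± 0.20 (adjusted p = 0.0196), with Btg2 the remaining one, while Dusp1, a phosphatase that ends MAP kinase signals, rose by 1.08 ± 0.35 (adjusted p = 0.0225) and Atf3 rose by 0.39 ± 0.13 (adjusted p = 0.0266). Immediate early genes that rose numbered 0 without 0.5 Gy replicate 1 and 1 without 3.0 Gy replicates 1, 2 or 4 or 0.5 Gy replicate 3. Il1b lost its call without any 1 array except 3.0 Gy replicates 2 or 3 or 0.5 Gy replicate 2, Tnf without any 1 array except 3.0 Gy replicate 2 or 0.5 Gy replicate 1 and under another fit, Il1rn without 3.0 Gy replicate 1 or 0.5 Gy replicate 1, Ier5 without 3.0 Gy replicate 3 or 0.5 Gy replicate 2, Dusp1 without 3.0 Gy replicate 1 or 0.5 Gy replicates 1 or 3, and Atf3 without 3.0 Gy replicates 2 or 4 or 0.5 Gy replicate 1 (adjusted p from 0.053 to 0.122).

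Of the 23 oxidative-stress members tested, 8 rose (34.8%) and 6 fell (26.1%), and the median log2 difference was 0.14. Over all genes 12.9% rose and 20.9% fell. Srxn1, which repairs peroxiredoxins, rose by 1.19 ± 0.27 (adjusted p = 0.00243). Gpx4, which protects membranes from lipid peroxides, rose by 0.74 ± 0.14 (adjusted p = 0.000458). Gsr, glutathione reductase, rose by 0.77 ± 0.18 (adjusted p = 0.00305). Txn1, thioredoxin, rose by 0.65 ± 0.18 (adjusted p = 0.01). Cat, catalase, which is abundant in red cells, fell by 0.71 ± 0.15 (adjusted p = 0.00144). Gpx1 fell by 0.49 ± 0.09 (adjusted p = 0.000619). Oxidative-stress genes that rose numbered 5 without 3.0 Gy replicate 3. Of the 30 autophagy members tested, 7 rose (23.3%) and 4 fell (13.3%), and the median log2 difference was -0.01, with a sign that turns under other scalings. Those that rose included 2 of the LC3 family and 2 of the lysosomal membrane, with 0.83 ± 0.12 (adjusted p = 4.21e-05) for Map1lc3a, 0.96 ± 0.18 (adjusted p = 0.000503) for Gabarapl1, 0.67 ± 0.15 (adjusted p = 0.00179) for Lamp1 and 0.96 ± 0.16 (adjusted p = 0.00024) for Lamp2. The 4 that fell were Atg4a (-1.32 ± 0.22, adjusted p = 0.000172), Rb1cc1 (-0.68 ± 0.13, adjusted p = 0.000524), Pik3c3 (-1.02 ± 0.23, adjusted p = 0.00223) and Gabarapl2 (-0.40 ± 0.11, adjusted p = 0.0117). Gabarapl2 lost its call under another scaling (adjusted p = 0.0779).

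The controls showed on which side of the unirradiated level the doses lay. Of the 2659 genes that fell, the control mean lay above both doses in 1794, between them in 849 and below both in 16; of the 1633 that rose it lay below both in 914, between them in 696 and above both in 23. In the tests against control, 665 genes (5.24%) were higher and 635 (5%) lower at 0.5 Gy, and 2534 (20%) were higher and 3703 (29.2%) lower at 3.0 Gy. Of the genes that fell between the doses, 2217 were called lower than control at 3.0 Gy alone and 249 at both doses; of those that rose, 928 were called higher than control at 3.0 Gy alone and 337 at both. These comparisons share the dose arrays and the control arrays.

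A few genes lay on opposite sides of the control, called in both directions. Sfpq, an RNA-binding protein of splicing and paraspeckles, measured 5.78, 6.23, 6.02 and 5.84 at 0.5 Gy and 2.99, 3.65, 3.01 and 2.81 at 3.0 Gy. The 0.5 Gy arrays were all above and the 3.0 Gy arrays all below every control array (mean 5.01 ± 0.44); it fell by 2.86 ± 0.22 (adjusted p = 3.28e-07), with 0.96 (adjusted p = 0.00484) at 0.5 Gy and -1.89 (adjusted p = 5.78e-07) at 3.0 Gy against control. Rps6ka3, the kinase RSK2, measured 6.57, 7.05, 6.68 and 6.73 at 0.5 Gy and 4.42, 5.10, 4.61 and 4.93 at 3.0 Gy, with differences from control of 0.79 (adjusted p = 0.0199) and -1.20 (adjusted p = 0.000105). Scd2, a fatty acid desaturase, had 0.88 (adjusted p = 0.0132) and -0.78 (adjusted p = 0.00654). The opposite order was seen in Cenpb, which binds centromeric DNA, with -0.37 (adjusted p = 0.0184) and 0.25 (adjusted p = 0.0391), and in Ifi27l2b, of the family of interferon-induced Ifi27 genes, with -0.33 (adjusted p = 0.0424) and 0.26 (adjusted p = 0.0377). They rose by 0.63 and 0.59 between the doses.

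Other genes came closer to the control level at the higher dose. Hsph1, a heat shock protein of the HSP110 family, measured 7.70, 7.02, 7.86 and 6.86 at 0.5 Gy and 6.33, 6.55, 6.80 and 6.70 at 3.0 Gy with controls at 5.86 ± 0.39, and its level above control was 1.50 (adjusted p = 0.000203) at 0.5 Gy and 0.73 (adjusted p = 0.0121) at 3.0 Gy. Vapb, an anchor of the endoplasmic reticulum, fell by 0.70 ± 0.18 (adjusted p = 0.00528) and differed from control by 0.79 (adjusted p = 0.00468) at 0.5 Gy and 0.09 (adjusted p = 0.674) at 3.0 Gy. Kif5b, a kinesin motor, fell by 0.48 ± 0.14 (adjusted p = 0.0151). Arih1 fell by 0.44 ± 0.12 (adjusted p = 0.00887). Fnbp1 fell by 0.58 ± 0.16 (adjusted p = 0.0103) and ND5, a mitochondrially encoded subunit of complex I, fell by 0.65 ± 0.19 (adjusted p = 0.0127), all from 0.5 Gy means above control. Treml4 differed from control by -1.12 (adjusted p = 0.00141) at 0.5 Gy and -0.54 (adjusted p = 0.0372) at 3.0 Gy. Genes that rose while the control lay above both doses were Gm9706 (0.66 ± 0.15), H2aj (0.41 ± 0.11), of which another, uncalled probe set gave -0.09, U2af1l4 (0.47 ± 0.13) and Csnk1g2 (0.40 ± 0.11), and Hnrnpab, whose probe set gave 1.05 ± 0.20 (adjusted p = 0.000656) while its 4 other probe sets gave -1.32 to -1.68, all called. Hsph1 lost its call without 3.0 Gy replicate 1 or 0.5 Gy replicates 1 or 3 and under another scaling, Vapb and H2aj under another choice of probe set, Kif5b without 0.5 Gy replicate 2 and under another choice of probe set and another scaling, Arih1 under another choice of probe set and another scaling, ND5 without 0.5 Gy replicate 3, and Treml4 without any 1 array except 0.5 Gy replicate 2 and under another filter (adjusted p from 0.0507 to 0.74).

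**Figure D5:**
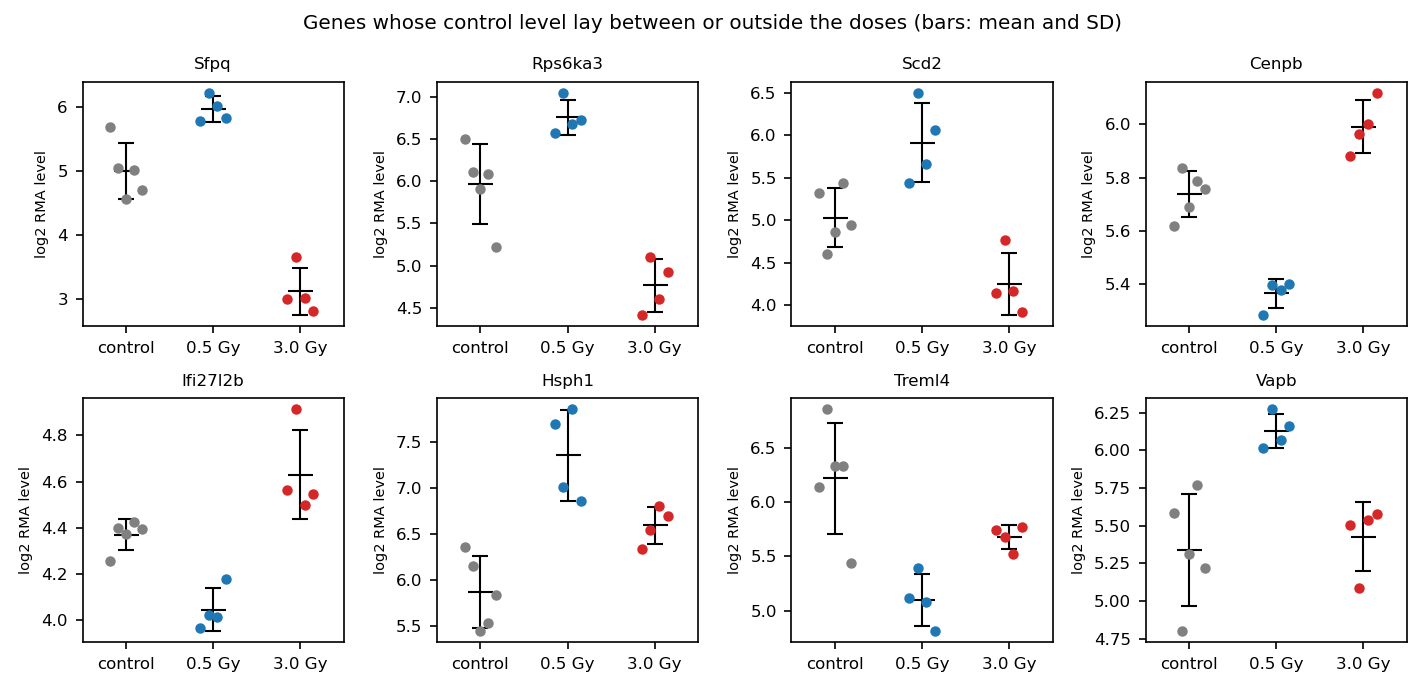
Level (log2 RMA) in each control, 0.5 Gy and 3.0 Gy array of 8 genes, with 1 point per mouse and the mean and SD as bars. Sfpq, Rps6ka3 and Scd2 were above control at 0.5 Gy and below it at 3.0 Gy, and Cenpb and Ifi27l2b the reverse, while Hsph1 (0.5 Gy minus control 1.50) was nearer to control at 3.0 Gy (0.73).

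Genes with the smallest p between the doses and the control between them included these. Lst1, a gene of leukocytes, rose by 1.16 ± 0.15 (adjusted p = 2.47e-05) and Cd300c2, an activating receptor of myeloid cells, rose by 0.95 ± 0.13 (adjusted p = 3.67e-05); Uqcc1 (0.86 ± 0.11), 1110028F11Rik (0.82 ± 0.12) and Borcs6 (0.74 ± 0.11) rose too. Dock10, an exchange factor for small GTPases in lymphocytes, fell by 3.01 ± 0.22 (adjusted p = 3.28e-07). Tardbp, the RNA-binding protein TDP-43, fell by 2.11 ± 0.18 (adjusted p = 7.73e-07). Prpf4b, a kinase of the spliceosome, fell by 2.37 ± 0.21 (adjusted p = 1.06e-06). Arap2 fell by 1.68 ± 0.15 (adjusted p = 1.06e-06). With the control above both doses, Lmo2, a partner of Tal1 in blood formation, fell by 1.69 ± 0.13 (adjusted p = 3.28e-07). Trib2, a pseudokinase, fell by 2.33 ± 0.20 (adjusted p = 7.82e-07). Trim59 fell by 2.11 ± 0.17 (adjusted p = 4.8e-07); with the control below both, Bcas3 rose by 1.08 ± 0.13 (adjusted p = 9.63e-06).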

How the data were processed

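Each of the 17 arrays holds the whole blood RNA of 1 mouse. The deposited table gives a log2 value for each of 45101 probe sets, which the authors made with RMA in R 3.3.2, per the submitters' processing notes. The settings they used were not given in the sources used here. The method removes part of a change shared by most genes, and pulls dim probe sets toward background, which understates their differences. Array files with scan dates or background were not used here.

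A table of platform annotation named 34945 probe sets with 1 symbol; 932 with several symbols and 9160 without one were left out, and 64 control probe sets were kept apart. A current mouse gene table holds 34741 of the named ones and changed 0 symbols. Each of 18193 genes was read by its probe set with the highest average, and 12696 genes whose probe set exceeded the 50th percentile of its array in at least 4 arrays were tested. Of these, 7482 have more than 1 probe set, and 1210 are read by a probe set of a type (_x_at or _s_at) that can bind related transcripts; those named here are Ninj1, Cnn3, Iglv1, H2-Ab1, H2-Aa, Ets1, Cd8a, Klra7, Clec4d, Hdc, S100a8, Ms4a4c, Tcf4, Psrc1, Sesn1, Bik, Mcl1, Tmem40, Fech, Slc4a1, Myb, Mcm5, Cdca8, Rad23b, Apex1, Rps18, Rpl22, Rpl41, Gpx4, Map1lc3a, Gabarapl1, Ifi27l2b, Gm9706 and Trib2.

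Group means of the 4 dose groups were fitted to the 17 arrays by lmFit and eBayes of limma 3.58.1, run in R 4.3.3, and the contrast was 3.0 Gy minus 0.5 Gy; tests are two-sided and p-values adjusted by Benjamini-Hochberg over 12696 genes. Array measures were compared by exact permutation over 70 regroupings. The code was tested on simulated data. The 26 gene lists, the members and the tests were chosen with earlier results of these data known. Named genes are the 12 largest rises and falls with non-overlapping arrays, up to 4 or 8 members per list with the smallest p, every called member where 5 or fewer were called in a direction, and 5 genes per position of the control; Saa3, Pax5, Ccng1, Mdm2, Aen, Cd4, Cd8a, S100a8, the genes on opposite sides of the control, Hsph1 and further list members were added after their values were seen. Besides the cases given in the text, Bach2, Ptp4a3, Jund, Arap2, Vapb, Fnbp1 and Bcl2l11 each have at least 1 other probe set that was higher at 3.0 Gy and not called (differences of 0.01 to 0.13). Some other genes named have a further probe set of the same sign that was far smaller and not called. Among these are Rps6ka3 (-0.09), Sfpq (-0.14), Birc3 (-0.09), Psma1 (-0.07), Trp53bp1 (-0.07), Ier5 (-0.04), Fam110b (0.20) and Gp1bb (0.32). Alternatives were other filters, probe set choices, scalings, fits and leaving out each array. Promoter windows come from the RefSeq table, in which 10210 of the tested genes have an entry.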

Additional observations from a re-analysis of the deposited data

Results flagged for a closer look

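In 5 genes the doses were called on opposite sides of the control, which is the basis on which they were picked. Their difference between the doses is therefore a description, and whether the effects of the doses differ in sign was not tested; the difference was -2.86 ± 0.22 for Sfpq, -1.99 ± 0.22 for Rps6ka3, -1.67 ± 0.23 for Scd2, 0.63 ± 0.10 for Cenpb and 0.59 ± 0.11 for Ifi27l2b. The 18S control probe sets, which are no part of the gene comparison, had a mean of 12.69 at 0.5 Gy against 10.52 in controls.

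Single arrays stood apart from the rest of their group by the gap to the nearest array relative to the range of the group (Dixon's criterion). Chance alone gives about 1 such flag in 20 groups; here 41 of 756 were flagged. In 0.5 Gy replicate 1, Atf3 was lowest (4.31, others 4.69 to 4.73). In 0.5 Gy replicate 2, Satb1 was highest (8.01, others 7.27 to 7.35), Csf3r was highest (9.34, others 8.23 to 8.31), S100a8 was highest (12.88, others 11.40 to 11.58) and Camp was lowest (3.91, others 4.27 to 4.32). In the same array, Psmb8 was highest (7.94, others 7.35 to 7.44), Parp9 was highest (6.63, others 6.15 to 6.20), Mcm6 was highest (5.59, others 5.08 to 5.13) and Rpa1 was highest (7.12, others 6.52 to 6.58). In the same array, Rpl4 was highest (11.28, others 10.87 to 10.89), Ikbkb was highest (7.63, others 6.98 to 7.03) and Gm9706 was lowest (5.42, others 5.87 to 5.91). In 0.5 Gy replicate 3, Ttc16 was highest (4.73, others 4.27 to 4.34). In 3.0 Gy replicate 2, Ms4a1 was highest (8.15, others 5.55 to 5.86), Fcmr was highest (6.97, others 5.24 to 5.46), Cd79a was highest (6.18, others 4.96 to 5.04) and Ighm was highest (8.90, others 6.61 to 6.998). In the same array, Mzb1 was highest (7.97, others 6.45 to 6.63), H2-Oa was highest (6.71, others 5.54 to 5.61), Camp was highest (4.75, others 4.28 to 4.35) and Bid was lowest (6.82, others 7.79 to 7.93). In the same array, Ifi27l2b was highest (4.91, others 4.50 to 4.56) and Vapb was lowest (5.09, others 5.50 to 5.58). In 3.0 Gy replicate 3, Ifitm1 was lowest (9.90, others 10.93 to 11.10), Ifit3 was lowest (8.06, others 8.77 to 8.90), Csf3r was lowest (8.76, others 9.71 to 9.88) and Ifitm2 was lowest (8.35, others 8.83 to 8.89). In 3.0 Gy replicate 4, Cd4 was highest (5.94, others 5.79 to 5.81), Ms4a4c was lowest (6.77, others 6.88 to 6.90), Psrc1 was lowest (5.46, others 5.59 to 5.60) and Gabarapl2 was highest (11.90, others 11.57 to 11.61). In control mouse 1, Nrgn was lowest (10.53, others 10.90 to 11.05), Tal1 was lowest (6.54, others 6.95 to 7.06) and Nfkbie was highest (5.77, others 5.16 to 5.30). In control mouse 2, Slfn4 was lowest (5.96, others 6.90 to 7.28). In control mouse 3, Bst2 was lowest (5.44, others 5.64 to 5.71). In control mouse 4, Psrc1 was lowest (4.79, others 5.23 to 5.41). In control mouse 5, Trem1 was lowest (5.46, others 5.78 to 5.90), Prtn3 was highest (4.36, others 3.79 to 3.85), Cd209a was highest (5.46, others 4.98 to 5.06) and Gata2 was highest (6.21, others 5.70 to 5.85).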

How the results depend on the processing

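The counts of calls, 1633 higher and 2659 lower, stayed within 1.5 times of these values without the filter, with the stricter filter, with the mean of all probe sets or the most variable one, in a fit of the 8 arrays alone, with trended and robust moderation and with array weights, and on the lower side also under both scalings. After a repeated quantile normalization 2857 genes were higher and with arrays centred on their medians 3233. With the 18S level in the fit 8 were higher and 87 lower. Without 1 array at a time the count was 1049 to 1725 higher and 2034 to 2721 lower. The cause of these shifts was not tested.

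The main fit did not pair the arrays by replicate number. Same-numbered arrays of the doses had deviations that correlated with r of -0.16, 0.22, 0.26 and -0.14. For differently numbered arrays r ran from -0.32 to 0.19. These values do not settle whether same-numbered arrays belong together. A fit with the replicate number as a block gave 1685 higher and 2757 lower.

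Among named genes, signs turned for Rrm2b (0.16), Treml4 (-0.091), Samd9l (0.31), Gp5 (-0.056) and Ccng1 (0.0101) with the 18S level. They also turned for Cd4 (0.0419), Ccng1 (0.0777) and Aen (0.0061) after quantile normalization and for Aen (0.0011) after centring, and by the mean (Cd8a -0.71, Hnrnpab -0.74) or the most variable probe set (Cd8a -2.11, Rpl41 -0.0791, H2aj -0.0853, Hnrnpab -1.68). Of genes not called, Mdm2 ranged from -0.056 to 0.11 and Pax5 from -0.0929 to 0.0825 without 1 array at a time, and Pax5 was at -0.2264 with the 18S level and -0.0139 with array weights. Of 234 named calls, 184 ended in no alternative other than the 18S fit. With 4 arrays per dose the number of mice limits the precision. On simulated data with these group sizes, 31% of changes of 0.5 and 93% of changes of 1.0 on the log2 scale were recovered. The simulation changed only a small share of the genes, while 33.8% were called in the data. The adjusted p is stricter when few genes change, so these rates do not carry over to this comparison.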

Other observations

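Families of genes outside the lists, picked by their symbols after their values were seen and therefore described without a test, are given by their counts. The Gimap genes, GTPases of lymphocytes that govern their survival, fell in 7 of 8 cases, with a median log2 difference of -1.62. Genes of the hnRNP proteins, which package messenger RNA precursors, fell in 15 of 19 cases and rose in 1, with a median of -1.20. Hnrnpab was called higher by the probe set used but lower by its other probe sets (-1.32 to -1.68). Genes of the SR splicing factors fell in 7 of 9 cases, with 1 that rose and a median of -0.74. Translation initiation factors fell in 25 of 44 cases and rose in 2 (median -0.61), RNA-binding motif proteins fell in 17 of 31 (median -0.52) and DEAD-box helicases in 16 of 31, with 1 that rose (median -0.41). Mitochondrial ribosomal proteins fell in 28 of 74 cases and rose in 1 (median -0.32).

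On the myeloid side, 4 of 5 CD300 receptors, which set the activation threshold of myeloid cells, rose, with a median of 0.78, and 3 of 7 Fc receptors for IgG and IgE rose while 1 fell (median 0.33). Heat shock proteins (2 of 22 rose and 7 fell) and DnaJ co-chaperones (3 of 35 rose and 13 fell) had medians of -0.06 and -0.23. Of 9 Toll-like receptors 1 rose and 1 fell, and of 12 chemokine receptors 1 rose and 5 fell. Over all genes tested 12.9% rose and 20.9% fell.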
